A study of Mus musculus with 8 samples.

Results

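The contractile genes of myoepithelial cells were examined in the exorbital lacrimal gland (LG) as a set of 9 genes chosen by symbol: Acta2, Cnn1, Myh11, Tagln, Mylk, Myl9, Tpm2, Actg2 and Oxtr. All 9 were found among the 24552 genes of the count table, and 7 of them were counted often enough to be tested. The study asked what calorie restriction (CR) does to the LG of ageing mice. Both groups were LGs of female C57BL/6J mice, with no transgene or mutation in either. The ad libitum (AL) group ate freely, and the CR group received 40% fewer calories for 4 months, starting at 6 to 7 months of age, so that glands of both groups were taken at 10 to 11 months. Each diet had 4 libraries, made from the 3′ ends of polyadenylated RNA. The labels number these libraries without tying them to animals or batches, so the p-values below measure the spread between these samples.

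Myoepithelial cells are flat, branched epithelial cells that lie between the secretory acini and the basement membrane, and they squeeze the acini when the gland is stimulated. They carry the contractile program of smooth muscle, in which calcium and calmodulin switch on myosin light chain kinase, the kinase phosphorylates the regulatory light chain, and myosin then pulls on smooth muscle actin. The same genes, apart from the oxytocin receptor, are also expressed in the smooth muscle of blood vessels. In whole-gland RNA, fewer cells of a type and less RNA per cell cannot be told apart.

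Many genes of this program carry CArG boxes, the sites that serum response factor binds. A CArG box is read here as a pair of C, then 6 bases that are each A or T, then a pair of G, a pattern that covers both strands because it is its own reverse complement. RefSeq promoters (GRCm38.p6, 250 bases before to 50 after the gene start) were matched for 6 of the 9 genes. Of these, Acta2 and Myl9 held a CArG box when 1 other base was allowed, and Myl9 also held an exact one. Among all 32851 promoters of the same length, 1.63% held an exact box and 9.98% a box with at most 1 other base. The promoters of Acta2 (chr19:34255324-34255623, minus strand) and Myl9 (chr2:156775214-156775513, plus strand) are shown 5′ to 3′ because they are the ones with a match, with the boxes in capitals.
Acta2 promoter: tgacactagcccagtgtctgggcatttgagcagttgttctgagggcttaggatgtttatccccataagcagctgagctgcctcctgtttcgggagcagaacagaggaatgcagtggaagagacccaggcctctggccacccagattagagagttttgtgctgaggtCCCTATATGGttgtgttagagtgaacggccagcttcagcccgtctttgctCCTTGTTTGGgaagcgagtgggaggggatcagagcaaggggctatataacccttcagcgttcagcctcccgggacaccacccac
Myl9 promoter: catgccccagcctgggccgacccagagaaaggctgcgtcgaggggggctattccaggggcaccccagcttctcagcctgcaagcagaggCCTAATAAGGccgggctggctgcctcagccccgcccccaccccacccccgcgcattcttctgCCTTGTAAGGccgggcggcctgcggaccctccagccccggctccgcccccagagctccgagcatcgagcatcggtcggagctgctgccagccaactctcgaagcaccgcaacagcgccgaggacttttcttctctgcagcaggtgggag
The first base of the Acta2 boxes lies 84 and 34 bases upstream of the start, each with 1 other base. In Myl9 the exact box lies 161 bases upstream and the box with 1 other base lies 99 bases upstream. No box was found in these windows of Cnn1, Mylk, Tpm2 or Oxtr, which says only that the letters are not in these windows. The Mylk window (chr16:34784700-34784999) is at the start RefSeq lists and lies inside the longer gene of the GENCODE annotation, so the first start of that gene was not searched.

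The libraries held between 12051881 and 22156511 reads counted on genes. Levels are given as CPM, the count of a gene as a share of all counts of its library, with library sizes scaled by RLE factors, and are compared between libraries for 1 gene at a time. A gene was called when its adjusted p was under 0.05 and its fold change at least 1.5. Transcripts of parotid gland genes were far more abundant in CR libraries, where the summed level of 7 parotid markers was 54380 to 297500 CPM, against 12010 to 41180 CPM in AL. Car6, 1 of the 7, was alone at 11800 to 28500 CPM in AL and 36500 to 82700 CPM in CR. All 7 had higher means in CR, and Prb1, Prh1 and Prp2 were called. The 12 lacrimal gland markers summed to 304500 to 348500 CPM in AL and 117600 to 316400 CPM in CR, with 6 means lower and 6 higher, and of these Sox10, a transcription factor of the gland's epithelium, was called higher (log2 fold change 2.13, SE 0.32, edgeR adjusted p = 0.00746). Skeletal muscle markers summed to 84.93 CPM in CR replicate 2 and 68.06 CPM in CR replicate 4, against at most 20.55 CPM elsewhere.

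All 7 contractile genes that could be tested had lower mean levels in CR than in AL, where 48.9% of all genes tested had a lower mean. The differences ran from 1.55-fold to 2.37-fold, so all 7 were at least 1.5-fold lower, where 12.8% of all genes were. None of the 7 was called in either direction by the quasi-likelihood test of edgeR after Benjamini-Hochberg adjustment, where 0.785% of all genes were called lower and 1.20% higher. At an unadjusted p under 0.05, 6 of the 7 were lower in CR, where 8.10% of all 11211 genes were. DESeq2 called 3 of them lower, where it called 2.40% of 13153 genes lower, and limma voom called 1, where it called 1.43% lower. In 2 of the 7, Myl9 and Tpm2, every CR library lay below every AL library, as in 5.20% of all genes. The median log2 fold change of the 7 was -0.83, and that of all genes was 0.01. Among the 7161 genes within the same range of mean level, 8.27% were lower at an unadjusted p under 0.05 and the median was 0.02.

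Of the thin filament genes, Acta2 (chr19:34241090-34255590, GRCm38, minus strand) encodes smooth muscle alpha-actin, the usual marker of myoepithelial cells. Its levels in AL replicates 1 to 4 were 47.1, 44.0, 69.4 and 47.4 CPM, and in CR replicates 1 to 4 they were 47.0, 28.0, 37.8 and 21.1 CPM. AL replicate 3 was the highest library and CR replicate 4 the lowest, and CR replicate 1 lay within the range of AL. The means were 52.0 ± 11.7 CPM (SD, n = 4) in AL and 33.5 ± 11.3 CPM (SD, n = 4) in CR. The log2 fold change was -0.64 (SE 0.25), with an edgeR adjusted p of 0.21.

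Tpm2 (chr4:43514711-43523765, minus strand) encodes beta-tropomyosin, which runs along the actin filament. It was measured at 14.4, 9.13, 13.0 and 11.4 CPM in AL and at 8.41, 6.74, 6.68 and 6.38 CPM in CR. Here the diets did not overlap, and the CR libraries were close to one another. With means of 12.0 ± 2.25 and 7.05 ± 0.918 CPM (SD, n = 4 each), the log2 fold change was -0.76 (SE 0.21), and the edgeR adjusted p was 0.0895.

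Actg2 (chr6:83512905-83536265, minus strand), the gamma-actin of enteric smooth muscle, was close to undetected. It had 3, 2, 0 and 4 counts in AL and 0, 3, 0 and 0 counts in CR. With 9 reads in all of AL and 3 in all of CR, an exact two-sided permutation test over the 8 libraries gave p = 0.257. The smallest p this design allows is 0.0286.

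Of the thick filament genes, Myh11 (chr16:14194535-14291372, minus strand) encodes the smooth muscle myosin heavy chain. Its AL levels were 15.3, 18.0, 27.3 and 22.1 CPM, and its CR levels were 14.8, 13.1, 16.4 and 7.54 CPM. AL replicate 3 was again the highest and CR replicate 4 the lowest, and only CR replicate 3 reached into the range of AL. The log2 fold change was -0.68 (SE 0.26), with an edgeR adjusted p of 0.201.

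Myl9 (chr2:156775420-156781658, plus strand) encodes the regulatory light chain that the kinase phosphorylates, and it had the largest difference of the 7 tested genes. AL libraries had 14.5, 19.3, 24.7 and 12.3 CPM and CR libraries 11.5, 5.09, 9.65 and 3.66 CPM. The diets did not overlap, although CR replicate 1 came close to AL replicate 4. The mean was 17.7 ± 5.48 CPM in AL and 7.48 ± 3.71 CPM in CR (SD, n = 4 each), a 2.37-fold difference. The log2 fold change of -1.25 (SE 0.35) had an edgeR adjusted p of 0.0917, with an unadjusted p of 0.00381.

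Mylk (chr16:34745210-35002420, plus strand) encodes myosin light chain kinase, the calcium-dependent switch of contraction. It was at 74.4, 75.2, 104 and 45.8 CPM in AL and at 54.3, 23.5, 49.2 and 28.2 CPM in CR. AL replicate 4 lay below CR replicates 1 and 3, so the diets overlapped through that library. The log2 fold change was -0.95 (SE 0.30), and the edgeR adjusted p was 0.128. Its exons overlap those of 2 genes on the opposite strand, and whether the counting used strand is not given in the sources used here.

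Of the actin-binding proteins, Cnn1 (chr9:22099216-22109630, plus strand) encodes calponin, which damps the myosin motor. Its levels were 6.31, 7.23, 12.3 and 7.70 CPM in AL and 7.35, 2.54, 4.52 and 2.72 CPM in CR. CR replicate 1 lay within AL, and the other CR libraries were below every AL library. The log2 fold change was -0.97 (SE 0.36), with an edgeR adjusted p of 0.187.

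Tagln (chr9:45929619-45936058, minus strand) encodes transgelin, an actin cross-linker of smooth muscle. It had 5.31, 3.00, 5.39 and 1.52 CPM in AL and 2.19, 1.42, 2.60 and 2.27 CPM in CR. Its lowest AL library, replicate 4, lay below 3 of the CR libraries. The log2 fold change of -0.83 (SE 0.42) had an unadjusted p of 0.0711 and an edgeR adjusted p of 0.354. Its exons overlap Pcsk7 and a second gene on the opposite strand, so without strand their reads could not be told apart.

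Oxtr (chr6:112473683-112489943, minus strand) encodes the oxytocin receptor, through which oxytocin makes myoepithelial cells contract. It had no count in any AL library and 1, 3, 0 and 0 counts in CR, so 4 reads of 129086927 were its whole signal. At this depth 3 counts correspond to 0.152 to 0.231 CPM per library, and a difference between diets was not detectable (exact two-sided permutation p = 0.429). For all 9 genes, none of the 75-base windows in the last 600 bases of their transcripts occurred in another gene, by the GENCODE annotation of GRCm38.

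**Figure D1:**
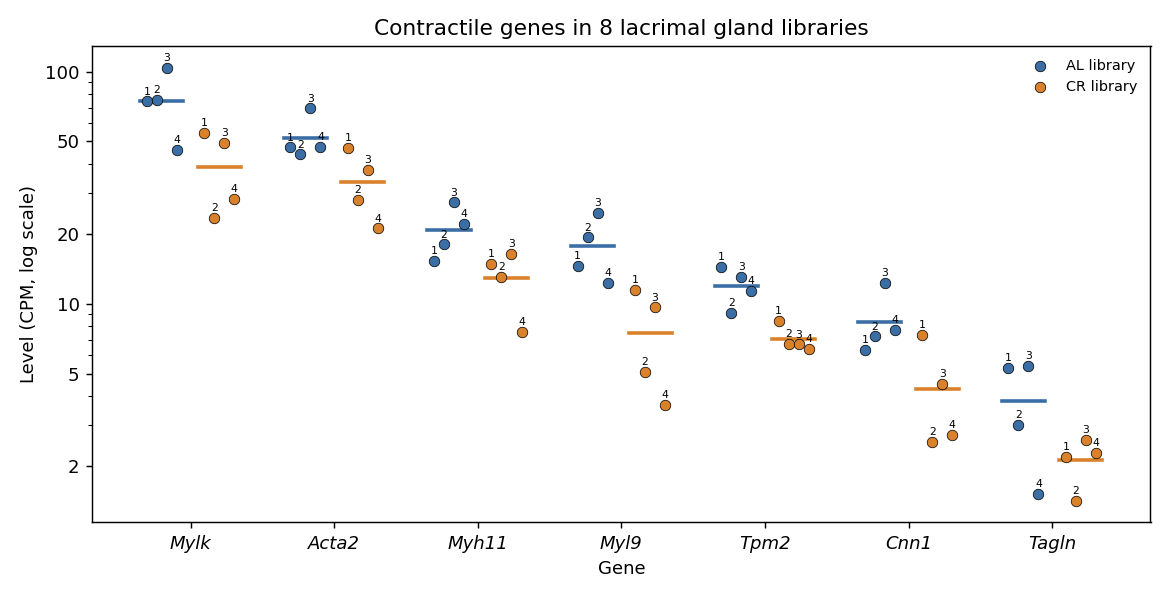
Level of each contractile gene in every library, in CPM on a log axis, with AL and CR libraries as separate points for each gene. All 7 tested genes have lower CR means, and only for Myl9 and Tpm2 do all CR points lie below all AL points.

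**Figure D2:**
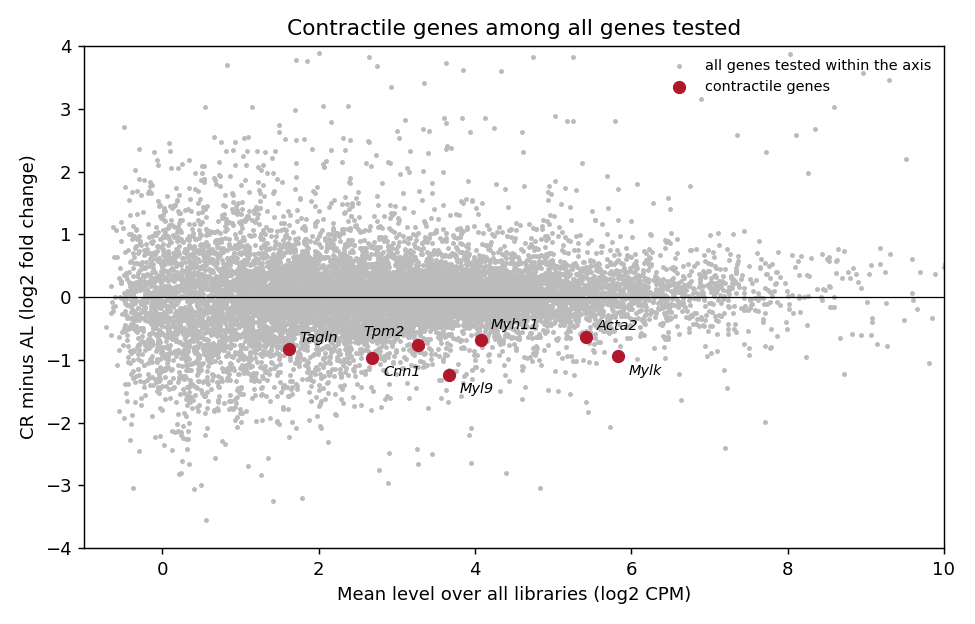
CR minus AL log2 fold change of all tested genes against their mean level in log2 CPM, with the contractile genes marked. The 7 tested contractile genes lie below 0, from -0.64 for Acta2 to -1.25 for Myl9, within the spread of other genes.

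The difference of each of the 7 genes stayed negative in all 22 alternative fits, while whether it was called depended on the fit. DESeq2, which called 316 of all genes lower against 88 in the main test, called Mylk (adjusted p = 0.0406), Myl9 (adjusted p = 0.0162) and Tpm2 (adjusted p = 0.0462). Limma voom with sample quality weights called only Myl9, with an adjusted p of 0.0446, and edgeR without a filter on low counts also called only Myl9, with an adjusted p of 0.0392, where 0.986% of 16735 genes were called lower. Acta2, Cnn1, Myh11 and Tagln were called in none of the 22. Leaving out 1 library at a time moved the median log2 fold change of the 7 between -0.73 and -1.02. None of the 7 was called in these fits. The share of all genes they called lower ran from 0.22% without CR replicate 2 to 2.17% without CR replicate 4, against 0.785% in the main test. The number at an unadjusted p under 0.05 fell to 3 without AL replicate 3 and to 4 without CR replicate 2, and reached 7 without AL replicate 4. The shares of all genes lower at that p were then 6.14%, 6.05% and 8.0%.

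CR replicates 2 and 4, the libraries with the most skeletal muscle transcripts, were also those with the lowest contractile genes, and the part of muscle transcripts in the result was not tested beyond leaving those libraries out. With CR replicates 1 and 3 alone against all AL libraries, a comparison chosen after seeing the data, all 7 genes had lower means in CR, and the median log2 fold change was -0.53. Of the 7, Myl9 and Tpm2 then had an unadjusted p under 0.05, where 8.49% of all genes were lower at that p, and the smallest edgeR adjusted p was 0.219. With the parotid level as a covariate the median was -1.16. Of the 7, 4 then had an unadjusted p under 0.05, where 4.8% of all genes were lower at that p. None of the 7 was called, in a fit that called 0% of all genes lower and 0.0268% higher. The mean log2 CPM of the parotid markers was 2.66 to 7.93 in AL and 10.0 to 13.4 in CR, without overlap. That fit therefore cannot separate the parotid level from diet.

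**Figure D3:**
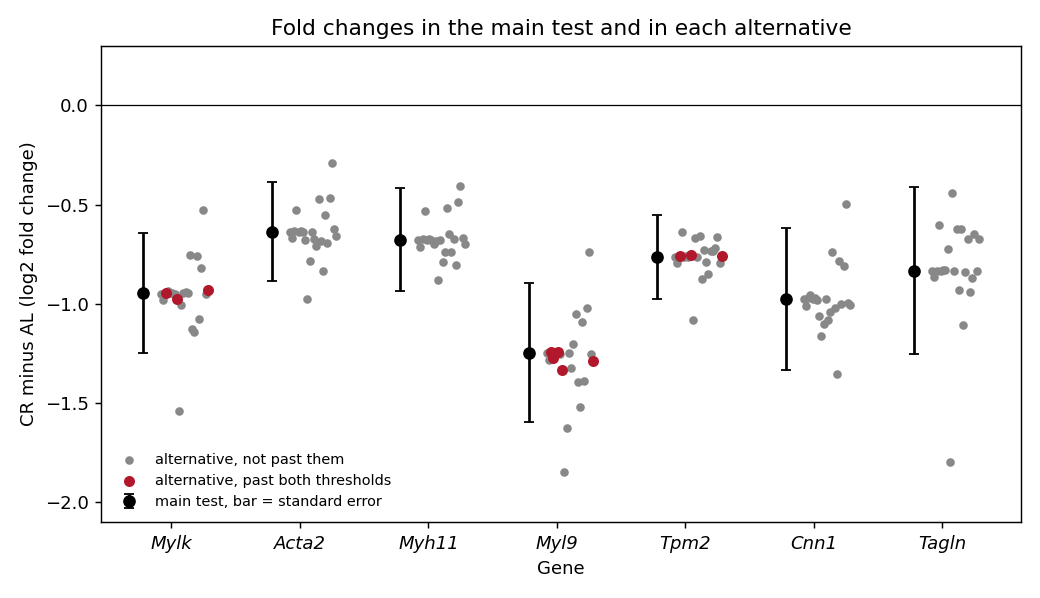
CR minus AL log2 fold change of the 7 tested contractile genes under the main fit and each alternative. All points lie below 0, and Myl9 ranges from -0.74 to -1.85.

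Most of the 7 genes were high and low in the same libraries, Tagln, Tpm2 and Myh11 less closely. The Pearson r of a gene's log2 CPM with the mean of the other 6 over the 8 libraries, which differ in diet and depth, was 0.635 for Tagln and 0.80 to 0.963 for the rest. As deviations from the diet means it was 0.422 for Tagln, 0.469 for Tpm2, 0.588 for Myh11 and 0.849 to 0.916 for the rest, and Myh11 and Tagln as a pair had an r of -0.04. CR replicate 4 held the lowest level of 4 of them and CR replicate 2 that of the other 3, whereas AL replicate 3 held the highest of 6. CR replicate 2 lay below every AL library for all 7 genes, CR replicate 4 for 6, CR replicate 3 for 4 and CR replicate 1 for 3. The mean log2 CPM of the 7 was 4.08, 3.98, 4.57 and 3.77 in AL and 3.71, 2.89, 3.51 and 2.79 in CR, so that CR replicate 1 came closest to AL, just below AL replicate 4.

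Within each diet the deeper libraries had the lower levels, apart from the order of CR replicates 1 and 3. In AL the deeper the library, the lower the contractile genes, from replicate 3 with 12051881 reads to replicate 4 with 22156511. In CR the most deeply sequenced library, replicate 4, also had the lowest mean, and the 2 shallowest, replicates 3 and 1, had the highest. This order was not particular to the contractile genes. The leading axis of within-diet variation over all tested genes, which held 36.6% of it, put the libraries of each diet in the same order as the contractile mean, replicates 3, 1, 2 and 4 in AL and 1, 3, 2 and 4 in CR. With counts thinned to the smallest library, chosen after seeing the data, the median log2 fold change of the 7 was -0.84. None of the 7 was called in that fit, where 0.837% of all genes were called lower and 1.27% higher. With log2 total counts as a covariate, also chosen after seeing the data, it was -0.76, and edgeR called Mylk (adjusted p = 0.00953), Myl9 (adjusted p = 0.00873) and Tpm2 (adjusted p = 0.0446). That fit called 2.30% of all genes lower.

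**Figure D4:**
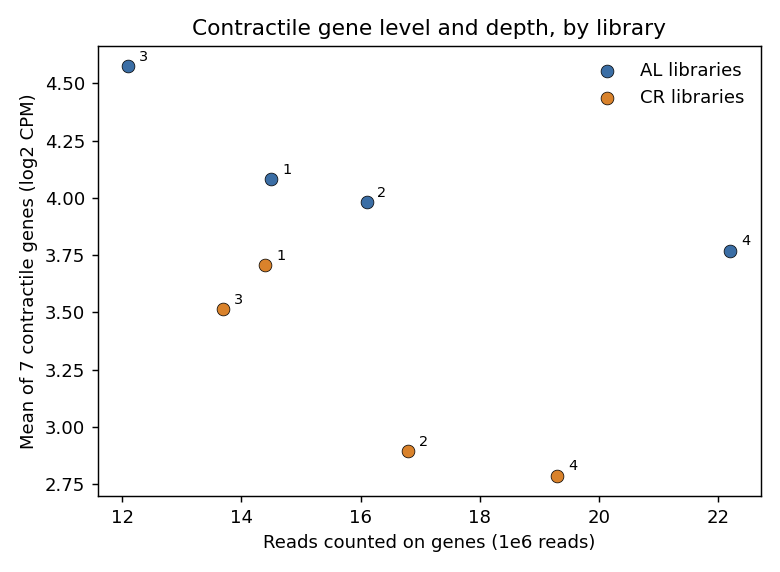
Mean log2 CPM of the 7 tested contractile genes against reads counted on genes, shown in units of 1e6 reads, for each library. In AL deeper libraries have lower values, in CR the 2 deepest are the lowest, and all CR libraries lie below all AL libraries.

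Other genes of the contractile machinery, such as further actins, tropomyosins, myosin chains and adhesion proteins, mostly had lower means too. Of 27 tested, 23 had lower means in CR, none was called lower and 1 was called higher by edgeR, and the median log2 fold change was -0.44. Of all genes, 0.785% were called lower and 1.20% higher. At an unadjusted p under 0.05, 10 of the 27 were lower, where 8.10% of all genes were, and 1 was higher. Pdlim3, a LIM protein that binds alpha-actinin, was at 5.12 to 9.39 CPM in AL and 2.11 to 4.03 CPM in CR, with a log2 fold change of -1.18 (SE 0.29) and an edgeR adjusted p of 0.0598.

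Upstream of the filaments the values were mixed. Of 15 tested regulators of contraction, such as the subunits of myosin phosphatase, none was called and the median log2 fold change was -0.03. All 4 tested transcription factors of the serum response factor group had lower means in CR, with a median of -0.48 and no call. Srf itself was at 17.0 to 22.2 CPM in AL and 9.58 to 15.2 CPM in CR, without overlap (log2 fold change -0.60, SE 0.19, edgeR adjusted p = 0.131). Myocd, the muscle coactivator of Srf, had counts in CR replicate 3 only. Of 12 tested genes for Gq-coupled receptors and calcium release, the steps that start contraction, none was called, 8 had higher means in CR and the median was 0.11.

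Of 14 tested myoepithelial and basal epithelial markers, 10 had lower means in CR, none was called and the median log2 fold change was -0.27. Krt14, the basal keratin of myoepithelial cells, was at 7.80 to 11.1 CPM in AL and 7.24 to 11.7 CPM in CR (log2 fold change -0.05, SE 0.23). Trp63, the transcription factor of basal epithelial cells, had a log2 fold change of -0.25 (SE 0.48), and Krt5 one of -0.91 (SE 0.32, edgeR adjusted p = 0.173). Summed over the 16 markers, the level was 111.2 to 149.5 CPM in AL and 103.3 to 118.3 CPM in CR, highest in AL replicate 3 and lowest in CR replicate 4, as for the contractile genes.

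For vascular mural cells, the smooth muscle and pericytes of vessels, all 6 tested markers had higher means in CR, none was called, and the median was 0.41. Their summed level was 10.7 to 15.2 CPM in AL and 12.48 to 22.89 CPM in CR. Of 11 fibroblast markers, 10 had lower means in CR, and the median log2 fold change was -0.96. Col1a1 and Col3a1, which encode fibrillar collagens, fell by 2.50 and 2.79 on the log2 scale. These 2 were called lower by edgeR, where 0.785% of all genes were. At an unadjusted p under 0.05, 5 of the 11 were lower, where 8.10% of all genes were. With the mural level as a covariate, the 7 contractile genes had negative log2 fold changes, with a median of -0.88. Of the 7, 3 had an unadjusted p under 0.05, where 3.17% of all genes were lower at that p. None of the 7 was called, and the smallest edgeR adjusted p was 0.548. That fit called only 0.00892% of all genes lower and 0.0178% higher. The mural level rests on 6 markers with AL means of 0.304 to 5.19 CPM, so the part of vessels was not tested by this fit. The part of fibroblasts and of basal epithelial cells in the contractile genes' difference was not tested either.

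**Figure D5:**
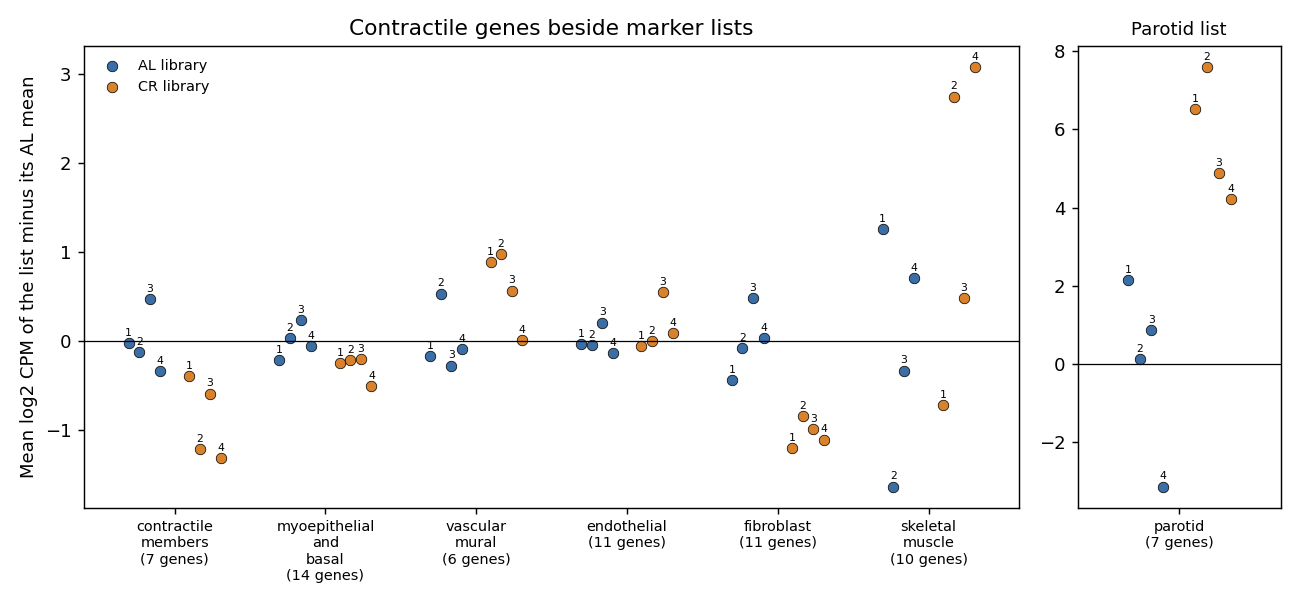
Mean log2 CPM of the contractile genes and of marker lists in each library, relative to the AL mean of the list, with the parotid list in a panel of its own. The contractile genes are lowest in CR replicates 2 and 4, where the skeletal muscle list is highest.

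The gene whose pattern over the 8 libraries was most like the mean of the 7 contractile genes was Sparc, which encodes a collagen-binding matrix protein, with Pearson r = 0.992. B3gnt2, Ptgir, the prostacyclin receptor, Ywhah and Flna, which encodes the actin cross-linker filamin A, followed with r of 0.989, 0.987, 0.98 and 0.979. These were picked as the highest of all tested genes over 8 libraries of 2 diets and differing depth, so they describe likeness and carry no test. Sparc was at 36.6 to 56.6 CPM in AL and 15.5 to 30.7 CPM in CR, with a log2 fold change of -0.89 (SE 0.24, edgeR adjusted p = 0.081). As deviations from the diet means, which leave out the diet difference, the most alike were Snw1, Slc4a7, Sox12, Znhit2 and Aldh2, with r of 0.982 to 0.99. Their log2 fold changes were 0.26, 0.06, 1.08, -0.01 and 0.22, and none was called by edgeR.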

How the data were processed

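RNA of 8 LGs was sequenced from 3′ ends as 75-base reads. The authors deposited raw counts per gene from HTSeq, after adapter trimming (cutadapt) and STAR alignment against mm10. Versions and the gene annotation are not given in the sources used here. The log2 values deposited by the authors are these counts after RLE scaling, and recomputing them differed by at most 0.000124, so they were not tested. Of 24557 rows, 5 repeated symbols were dropped. The labelled diet set the groups.

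Counts of 11211 genes passing filterByExpr were compared in R 4.3.3 by the quasi-likelihood test of edgeR 4.0.16, scaled by RLE, with Benjamini-Hochberg adjustment over all of them. Standard errors were obtained by dividing each log2 fold change by the root of its F statistic. The biological coefficient of variation was 34.7%. Actg2 and Oxtr, counted too rarely, were compared by exact permutation. Descriptive log2 CPM used a pseudocount of 0.1. Alternatives were DESeq2 1.42.0, limma 3.58.1 voom, other scalings and filters, covariates, a replicate block and leaving out libraries. On simulated counts for CR against AL over 10970 genes, 22 of 99 genes changed by a log2 of 1 were called, and 73 of 97 changed by a log2 of 2.

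The genes and lists were chosen with earlier results of these data known. All 9 contractile genes are named, and of each other list the called genes or those with the smallest p, a few key markers, and the genes most like the contractile mean. A few genes that this rule names are not reported here. Some markers were picked from these after their values were seen. The floor of 3 counts covers counting error only.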

Additional observations from a re-analysis of the deposited data

Results flagged for a closer look

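Acta2 in AL was the single value set apart from its group. Of the 14 groups of 4 libraries checked (7 genes in each diet, as log2 CPM), this one had a gap between its highest library, replicate 3, and the next that was 0.835 of its whole range, just above Dixon's critical value for 4 samples. This is a 95% limit, which chance alone passes now and then over 14 groups. Without AL replicate 3 the log2 fold change of Acta2 was -0.47, with an unadjusted p of 0.0867 and an adjusted p of 0.441 by the quasi-likelihood test of edgeR after Benjamini-Hochberg adjustment.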

How the results depend on the processing

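The direction of all 7 contractile genes was the same in each of the 22 alternatives, and the calls were not. Against none called lower by the main test, DESeq2 called 3, limma voom 1, edgeR without a filter on low counts 1 and edgeR with log2 total counts as a covariate 3. The replicate block called 3 contractile genes, with 4 pathway genes lower, 4 pathway genes higher, 6 markers lower and 10 markers higher, in a fit that called 2.78% of all genes lower and 3.46% higher. The labels share replicate numbers across diets, but same-numbered libraries correlated in their deviations at 0.145, 0.077, 0.24 and 0.456, and 5 of 8 libraries correlated best with their own number, so not every pair passed 0.1 and the numbers were not taken as a pairing. In the pathway lists, none was called lower by the main test, 3 by DESeq2 and 0 to 1 with 1 library left out (1 without AL replicate 4). There 1 gene was called higher by the main test, 0 with the parotid covariate, 2 with CR replicates 1 and 3 only and 0 to 2 with 1 library left out (2 without CR replicate 4). In the marker lists, 2 were called lower by the main test, 4 by DESeq2, 0 with the parotid covariate and 2 to 4 with 1 library left out (4 without CR replicate 4). Higher markers numbered 4 in the main test, 10 by DESeq2, 0 with the parotid covariate and 2 to 10 with 1 library left out (2 without AL replicate 2 or 3, 10 without CR replicate 4). These counts stand beside the shares of all genes called in the same fits. The main test called 0.785% lower and 1.20% higher, and DESeq2 2.4% and 3.14%. With the parotid covariate the shares were 0% and 0.0268%, and with CR replicates 1 and 3 only they were 1.13% and 2.66%. Leaving out CR replicate 4 called 2.17% lower and 3.97% higher, and leaving out any other library called less than the main test did. The cause of these changes was not tested. Depth limits Actg2 and Oxtr, whose counts allow no fold.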
